A study of Mus musculus with 13 samples.

Results

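The 69 genes described here encode proteins of the cytosolic ribosome or carry a symbol of that family. They were taken from the 22180 mouse genes that had a probe set of their own on the array. A gene was a member where a probe set listed with a single symbol named it Rpl or Rps followed by a digit, or Rpsa, Rplp0, Rplp1 or Rplp2. Genes of the Rps6k kinases and symbols with the ending -ps were left out, and a gene with several probe sets was read from the one with the highest mean. By their names 32 members belong to the large subunit, 23 to the small subunit and 3 to the P stalk. Another 9 are paralogs or like genes, and 2, Rps19bp1 and Rps23rg1, share the symbol without being ribosomal proteins. Of 89 protein-coding RefSeq symbols that meet the same rule, 67 were members. The other 22 were not analysed here: 14, among them Rpl10, Rpl13a, Rpl36a and Rpl36al, were listed only with probe sets of several genes, and 8 with no probe set. The members Rpl6l and Rps4l are pseudogenes in RefSeq.

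RNA came from CD205+CD8+ dendritic cells of the spleen, which were sorted a second time by surface CD103, the αE integrin, into cells with a high and a low level. The donors were C57Bl/6 littermates labelled male, and every group, controls included, had carried a subcutaneous B16 melanoma secreting Flt3L, a dendritic cell growth factor, since 6 weeks of age. After 5 days an injection of 100 ul of PBS was given into the peritoneum, either alone or with 50 ug of muramyl dipeptide (MDP), a peptidoglycan fragment sensed by NOD2, and spleens were taken 24 h later. Of the 13 arrays, 4 are PBS CD103 low, and PBS CD103 high, MDP CD103 low and MDP CD103 high have 3 each. Arrays are named by the replicate number of their label. The labels do not say whether different arrays stand for different animals. P-values therefore cover a spread between samples that may in part be technical.

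The cytosolic ribosome is built from a small subunit, which reads the mRNA, a large subunit, which joins amino acids, and ribosomal RNAs. The P stalk is a flexible arm of the large subunit that recruits the elongation factors. The mRNAs of ribosomal proteins are among the most abundant of the cell, and in vertebrates most of them begin with a cytosine and an unbroken run of pyrimidines, the 5′ terminal oligopyrimidine (TOP) motif. Through this motif the kinase mTORC1 sets their translation more than their abundance. Arrays measure the abundance of the mRNA and not its translation.

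The first 25 bases from the annotated start are shown for members that the results below turn on. They show how the annotation differs, which need not be the start of the mRNA in these cells. They were read from RefSeq starts (GRCm38.p6), and capitals mark the pyrimidine run where it begins with C and holds at least 4 further pyrimidines. The first 6 genes have such a start in this annotation and the last 4 do not. Rpl10a and Rps27l have a further annotated start, not shown, which does not meet the rule either. The regions are chr4:86857343-86857367 on the minus strand for Rps6, chr17:33955641-33955665 on the minus strand for Rps18, chr11:114668580-114668604 on the plus strand for Rpl38, chr3:90213624-90213648 on the minus strand for Rps27, chr7:141447651-141447675 on the plus strand for Rplp2 and chr10:20208439-20208463 on the plus strand for Rpl32l. Those without the motif at the annotated base are chr7:99483685-99483709 on the minus strand for Rps3, chr15:5116613-5116637 on the plus strand for Rpl37, chr17:28328471-28328495 on the plus strand for Rpl10a and chr9:66946086-66946110 on the plus strand for Rps27l.
Rps6: CTCTTTTTCgtgacgcctcccaggc
Rps18: CTCTCTTCCacaggaggcctacacg
Rpl38: CTTTCCCCgttctcttcggttctca
Rps27: CCTTTCCggcggtgacgacctccct
Rplp2: CTTTCgccgccggacgccgccgagg
Rpl32l: CTTCTTCCTTggtgctgcctacgag
Rps3: gcgctgcgcggcgtcattgctcccg
Rpl37: agcttatccacaggaagtggcgggg
Rpl10a: cggccgcaaactgcagcgcctctcc
Rps27l: gcctctatcccggaagttgctgagg

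Of the 69 members, 54 matched a gene of the RefSeq start table. A TOP start was found at 11 of these (20.4%), against 813 of 27025 genes in the table (3.01%), where the letters were read on the transcribed strand alone. The run was 5 to 13 bases long. The other members with such a start were Rpl14, Rpl15, Rpl28, Rpl35 and Rps10. The rule reads a single annotated base, so a gene whose annotated start lies a few bases off does not meet it. Rpl27a, for example, begins tcccttttccctttctgccaccgcc in this table (chr7:109519195-109519219, plus strand), a long pyrimidine tract that opens with T.

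As a check of the sort, 11 of 12 markers of cDC1, the type of dendritic cell that CD205 and CD8 mark, were measured. Their median log2 value was 10.66, and 0 of the 11 lay below 5.12, the 95th percentile of 1105 olfactory receptor genes, which served as a measure of background. The cDC1 list includes Cd8a, Ly75 and Itgae, genes of the proteins sorted on, so it is in part no separate check. Markers of 9 other types had medians of 4.25 (natural killer cell) to 5.89 (monocyte and macrophage). Below 5.12 lay 0 of 7 monocyte and macrophage markers (highest Ly6c2, 7.64) and 2 of 8 plasmacytoid markers (highest Bst2, 10.11). The share was higher in the other types, from 3 of 8 (cDC2) to 3 of 3 (erythroid). Over the 13 arrays the mean of the cDC1 markers ran from 10.53 to 10.99. Although all animals are labelled male, 7 arrays had a high value of Xist, an RNA of female cells (10.98 to 11.21, against 4.47 to 6.69 in the other 6), and each group held arrays of both kinds. MDP CD103 low replicate 1 stood apart in a list of 18 genes of mature dendritic cells, with a mean of 9.04 where replicates 2 and 3 had 7.96 and 7.98.

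The members spanned nearly the whole scale of the array. Their means over 13 arrays ran from 2.10 for Rpl32l to 13.19 for the stalk protein Rplp1, with a median of 9.08 against 5.27 over all genes. The values are deposited log2 values of separate probe sets, so the order of genes by level depends on the probes as well as on the mRNA. A mean of at least 10 was reached by 31 members, 18 of the large subunit, 12 of the small subunit and Rplp1, and by 940 genes in all; the limit of 10 was chosen after the values were seen. These 31 are called bright below, and genes as bright means the 940 past the same limit, which include the 31. The 940 were not matched to the members in level. Their mean by group was 10.81 to 10.83, against 11.74 to 11.81 for the 31. A further 31 members lay between that limit and the olfactory receptor level. The remaining 7 lay below it: Rpl10l, Rpl27a, Rpl30, Rpl32l, Rpl3l, Rps15 and Rps29. Rpl27a, Rpl30, Rps15 and Rps29 are proteins of every ribosome, and Rpl3l and Rpl10l are paralogs best known from muscle and testis.

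The choice of probe set carries much of this range. Several probe sets were listed for 25 members, and in 20 of these the lowest and the highest mean differed by more than 2. Rpl35, a protein near the exit of the peptide tunnel, had 3 probe sets with means from 4.48 to 11.90. The 8 probe sets of Rps12 held 3 distinct sets of values, and the pair of Rpl23a was identical in every array. Probe sets of ribosomal protein genes can also match processed pseudogenes, of which mammals have many, and the share of such signal was not tested.

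Within a group the bright members were steady. The SD within groups that the fit left unexplained had a median of 0.0552 over the 31 bright members, against 0.0748 over the 940 genes past the same limit. For members between the limits it was 0.129 against 0.121, and for the 7 below the olfactory receptor level 0.152 against 0.163. This SD falls with level over all genes and the 940 lie lower than the 31, so the first pair does not compare genes of equal level. The smallest value among bright members was 0.0285 for Rps3, a protein of the mRNA entry channel. Rps3 read 11.82, 11.78, 11.79 and 11.76 in PBS CD103 low, 11.76, 11.76 and 11.74 in PBS CD103 high, 11.77, 11.80 and 11.74 in MDP CD103 low and 11.73, 11.66 and 11.73 in MDP CD103 high. All 13 values thus lay within 0.164 of each other. The 5 least steady members were Rps15 (0.438), Rpl30 (0.261), Rps16 (0.243), Rpl6 (0.199) and Rps4l (0.177), none of which was bright.

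**Figure D1:**
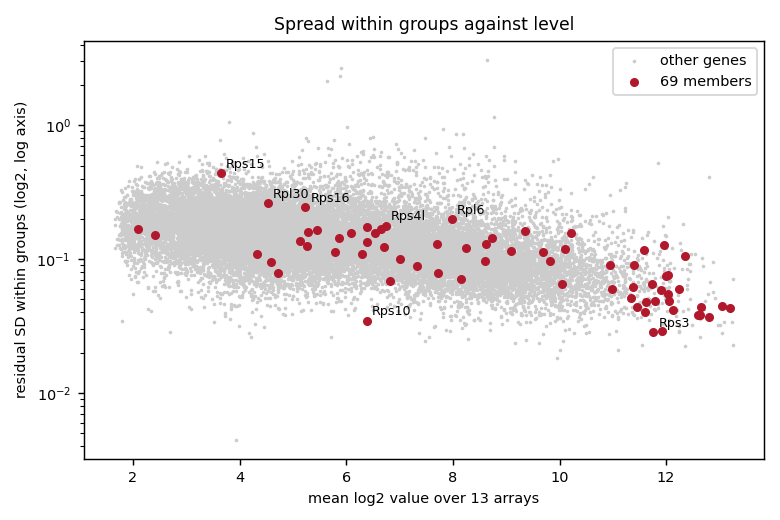
SD within groups (log2 units, log axis) against the mean log2 value over 13 arrays, with a point per gene; members are red and other genes grey. Bright members on the right lie between 0.0285 and 0.156, and the labelled Rps15, Rpl30, Rps16, Rpl6 and Rps4l are the least steady members.

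The 4 groups allow the CD103 sorts to be compared in each treatment and the treatments in each sort. No member changed past the threshold in any of the 7 contrasts (limma, Benjamini-Hochberg over 22180 genes, adjusted p under 0.05). For CD103 high against low this was 0 of 69 with PBS, where 0.0766% of all genes were called, and 0 of 69 with MDP, where 0.523% were. For MDP against PBS it was 0 of 69 in CD103 low cells, with 0.00451% of all genes called, and 0 of 69 in CD103 high cells, with 1.82% called. The count was also 0 for the difference between the MDP responses of the sorts (0.0721% of all genes), for CD103 averaged over treatments (0.126%) and for MDP averaged over sorts (0.185%). At such rates a count of 0 among 69 does not set the family apart from other genes. In bulk RNA, fewer cells of a type and less RNA per cell cannot be told apart, and the authors' normalisation removes a change shared by most genes.

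An unadjusted p under 0.05, also from limma, was reached by 3 members for CD103 with PBS (8.52% of all genes), 9 with MDP (10.2%), 2 for MDP in CD103 low cells (6.06%) and 4 in CD103 high cells (13.3%). For the difference of responses it was 2 (9.63%), and for the averages 8 (CD103, 9.56%) and 4 (MDP, 11.8%). Of the 31 bright members, 0 reached it for CD103 with PBS (11.3% of the genes as bright) and 1 with MDP (8.94%). For MDP against PBS, 0 of the 31 did in CD103 low cells (2.87%) and 1 in CD103 high cells (20.3%). The largest difference of any member was 0.344 (Rps4l) for CD103 with PBS, 0.485 (Rps15) with MDP, -0.681 (Rpl30) for MDP in CD103 low cells and 0.444 (Rpl37) in CD103 high cells.

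For bright members the intervals were narrow. The 95% confidence interval of the log2 difference lay within 0.5 on either side of 0 for 31 of 31 bright members in CD103 high against low with PBS, 30 with MDP, 31 for MDP in CD103 low cells and 30 in CD103 high cells. Among all 69 members the counts were 66, 62, 66 and 62. The bound farthest from 0 over the 4 comparisons was 1.14, for CD103 with MDP, and came from a member below the olfactory receptor level.

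**Figure D2:**
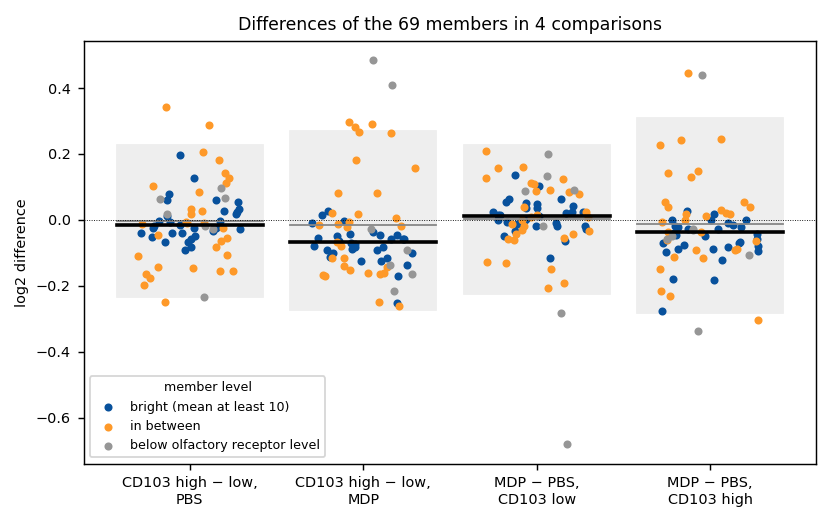
Log2 differences of the 69 members in the comparisons of sort and treatment, with a point per gene coloured by level. Black lines are medians of the members, grey lines medians of all genes and grey boxes the range from the 5th to the 95th percentile of all genes; the members' medians are -0.015, -0.068, 0.013 and -0.036 from left to right.

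Small subunit proteins gave 0 calls among 23 in each comparison of sort and treatment. Rps6, the target of the S6 kinases and a common readout of mTORC1 activity when phosphorylated, was the brightest of them. It read 13.06, 13.08, 13.0045 and 13.02 in PBS CD103 low, 13.04, 12.96 and 13.06 in PBS CD103 high, 13.08, 13.08 and 13.12 in MDP CD103 low and 13.08, 12.98 and 12.95 in MDP CD103 high. Every MDP CD103 high array lay below every MDP CD103 low array, by little: the log2 difference was -0.09 ± 0.064 (limma, SE, adjusted p = 0.689).

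Rps14, a protein of the platform whose loss causes the anaemia of the 5q- syndrome, read 6.33, 6.31, 6.06 and 6.05 in PBS CD103 low and 6.52, 6.48 and 6.42 in PBS CD103 high. With MDP it read 6.08, 6.19 and 6.16 in CD103 low and 6.43, 6.29 and 6.51 in CD103 high cells. The CD103 high arrays were the higher ones in both treatments and did not overlap with their CD103 low counterparts. The log2 difference was 0.29 ± 0.087 with PBS (limma, adjusted p = 0.373), 0.27 ± 0.093 with MDP (adjusted p = 0.321) and 0.28 ± 0.064 as the average of both (adjusted p = 0.157), so none passed the threshold.

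Rps18, a protein of the head of the small subunit with a TOP start, pointed the other way. It read 9.67, 9.94, 9.61 and 9.78 in PBS CD103 low and 9.61, 9.60 and 9.62 in PBS CD103 high, which overlapped. With MDP it read 9.97, 9.71 and 9.83 in CD103 low and 9.68, 9.56 and 9.48 in CD103 high cells, which did not. The log2 difference with MDP was -0.26 ± 0.096 (limma, adjusted p = 0.343). Rps19, the gene most often mutated in Diamond-Blackfan anaemia, kept within 0.171 over the 13 arrays, from 10.90 to 11.07. Rpsa, also the precursor of a laminin receptor, ran from 11.25 to 11.48 and was lower in every MDP CD103 high array than in the MDP CD103 low arrays (limma, -0.11 ± 0.067, adjusted p = 0.612).

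Rps15, which helps export the small subunit from the nucleus, had the largest spread of all members. It read 2.94, 3.77, 4.05 and 4.11 in PBS CD103 low, 3.73, 3.81 and 2.92 in PBS CD103 high, 3.33, 3.21 and 3.77 in MDP CD103 low and 4.14, 3.57 and 4.06 in MDP CD103 high. These values lie below the olfactory receptor level, and arrays of the same group were as far apart as 2.94 and 4.11. Rps16 read 4.81 to 5.64 over the 13 arrays and Rps27 6.26 to 6.79, with overlapping groups in each comparison of sort and treatment.

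Large subunit proteins likewise gave 0 calls among 32. Rpl37, a zinc-binding protein that can hold back the p53 inhibitor Mdm2, came closest to the threshold. It read 5.70, 5.62 and 5.57 in PBS CD103 high and 6.06, 6.10 and 6.05 in MDP CD103 high, 2 groups that stand clearly apart. In CD103 low cells it read 5.91, 5.83, 5.91 and 5.65 with PBS and 5.92, 6.16 and 5.65 with MDP, which overlapped. The log2 difference MDP minus PBS in CD103 high cells was 0.44 ± 0.11 (limma, adjusted p = 0.073). Without MDP CD103 low replicate 2 the adjusted p was 0.037, and without MDP CD103 low replicate 3 it was 0.0328; neither array belongs to the groups compared, and both enter through the shared estimate of the spread. The difference in CD103 low cells was 0.09 ± 0.11 (limma, adjusted p = 0.911), and the test of the difference between both responses gave 0.36 ± 0.15 (adjusted p = 0.486).

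Rpl30, which also binds its own mRNA, lay below the olfactory receptor level in mean. It read 4.72, 4.59, 4.96 and 4.64 in PBS CD103 low and 3.88, 4.49 and 3.77 in MDP CD103 low, which did not overlap. In CD103 high cells it read 5.03, 4.86 and 4.50 with PBS and 4.56, 4.22 and 4.59 with MDP, which did. The log2 difference of MDP minus PBS was -0.68 ± 0.18 in CD103 low cells (limma, adjusted p = 0.706), -0.34 ± 0.19 in CD103 high cells (adjusted p = 0.484) and -0.51 ± 0.13 as the average (adjusted p = 0.129).

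Rpl5 and Rpl11 form with 5S RNA the particle that binds Mdm2 when ribosome assembly falters. Rpl5 read 6.20, 6.09, 6.33 and 5.92 in PBS CD103 low and 5.77, 5.92 and 5.96 in PBS CD103 high, which overlapped (limma, -0.25 ± 0.11, adjusted p = 0.583). Rpl11 pointed upward in the same comparison by 0.21 ± 0.12 (limma, adjusted p = 0.69). The members of this pair thus had differences of opposite sign, neither past the threshold.

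Rpl10a, a protein of the L1 stalk, read 8.73, 8.72, 8.65 and 8.72 in PBS CD103 low and 8.45, 8.56 and 8.57 in PBS CD103 high, which did not overlap. With MDP it read 8.52, 8.97 and 8.66 in CD103 low and 8.59, 8.47 and 8.34 in CD103 high cells, which did. Its average CD103 difference was -0.21 ± 0.072 (limma, adjusted p = 0.379), the lowest average of any member. Rpl3, at the peptidyl transferase centre, had an average CD103 difference of -0.15 ± 0.069 (limma, adjusted p = 0.504). Rpl32 ran from 9.88 to 10.52 and had the largest MDP difference of the bright members in CD103 high cells, -0.28 ± 0.12 (limma, adjusted p = 0.345), with groups that overlapped. Rpl38, which is known from the tail-short mouse for its part in translating Hox mRNAs, ran from 11.94 to 12.13.

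**Figure D3:**
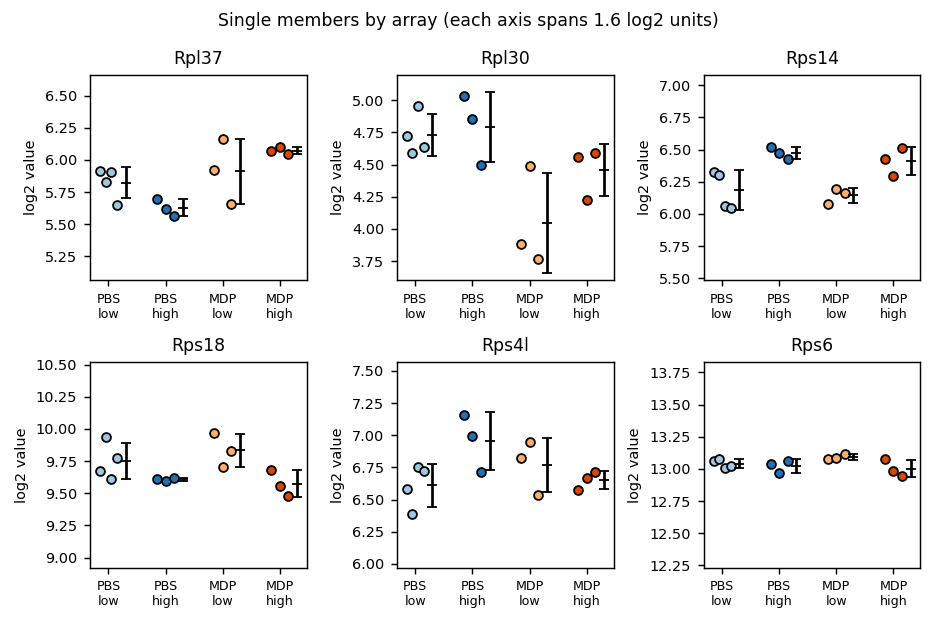
Log2 values of 6 members by group, with a point per array and the mean ± SD at the right of each group; each axis spans 1.6 log2 units. Rpl37 lies between 6.05 and 6.10 in MDP CD103 high arrays against 5.57 to 5.70 in PBS CD103 high arrays, while Rps6 stays between 12.95 and 13.12 in all 13.

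The stalk proteins gave 0 calls among 3. Rplp1 ran from 13.12 to 13.27, Rplp0, the base of the stalk, from 8.43 to 8.99 and Rplp2 from 4.90 to 5.44. Rplp2 was highest in MDP CD103 high replicates 3 and 4 (5.38 and 5.44), while replicate 2 of that group read 5.09, within the range of 4.90 to 5.14 of MDP CD103 low. The CD103 difference of Rplp2 with MDP was 0.28 ± 0.11 (limma, adjusted p = 0.37).

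Paralogs were read beside their partners. None of the 9 was bright, and 0 of 9 were called in each comparison of sort and treatment. Rps4l had the largest CD103 difference with PBS of all members, 0.34 ± 0.13 (limma, adjusted p = 0.477), from 6.58, 6.39, 6.76 and 6.72 in CD103 low against 7.15, 6.997 and 6.71 in CD103 high cells. These groups overlapped through the last array. With MDP it read 6.82, 6.94 and 6.53 in CD103 low and 6.58, 6.66 and 6.71 in CD103 high cells, and the test of the difference between both MDP responses gave -0.46 ± 0.18 (limma, adjusted p = 0.433). Its X-linked partner Rps4x stayed between 11.54 and 11.70.

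Rpl7l1, a paralog linked to ribosome assembly, read 7.93, 7.81 and 7.84 in MDP CD103 low and 7.53, 7.74, 7.75 and 7.60 in PBS CD103 low, which did not overlap (limma, 0.21 ± 0.073, adjusted p = 0.765). Its partner Rpl7 was also higher in each MDP CD103 low array (11.43, 11.50 and 11.45) than in the PBS CD103 low arrays (11.34, 11.39, 11.22 and 11.33), by 0.14 ± 0.066 (limma, adjusted p = 0.814). Rps27l, a p53 target, ran from 8.002 to 8.28. Rpl22l1 ran from 4.88 to 5.40 beside 7.07 to 7.46 for Rpl22, and Rpl39l from 6.42 to 7.03 beside 5.64 to 6.03 for Rpl39. Rpl3l ran from 4.14 to 4.48 and Rpl10l from 2.19 to 2.64.

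Single members thus gave no call, but many bright members shared a sign. In CD103 high against low with MDP, 29 of 31 bright members were below 0, with a median of -0.071, against 61.4% of the 940 genes as bright and their median of -0.023. In MDP against PBS in CD103 high cells it was again 29 of 31, with a median of -0.049, against 54.4% of the genes as bright and their median of -0.012. These comparisons share the MDP CD103 high arrays. For the difference between both MDP responses, which uses the same arrays, 28 of 31 were below 0 (median -0.064), against 59.1% of the genes as bright (median -0.026). With each array left out in turn, the count ran from 26 to 30 for CD103 with MDP, 22 to 31 for MDP in CD103 high cells and 22 to 30 for the difference. The medians ran from -0.11 to -0.052, -0.082 to -0.035 and -0.107 to -0.041. The lowest medians came without MDP CD103 high replicate 2, and the highest without MDP CD103 high replicate 4, PBS CD103 high replicate 6 and MDP CD103 low replicate 2 in turn. In CD103 with PBS, 20 of 31 were below 0 (median -0.019), against 48.0% of the genes as bright (median 0.005). Without PBS CD103 high replicate 4 that count was 12 and the median 0.023. For MDP in CD103 low cells, 11 of 31 were below 0 (median 0.014), against 37.7% of the genes as bright (median 0.018). That count was 7 without MDP CD103 low replicate 1 or without PBS CD103 low replicate 3, and 18 without PBS CD103 low replicate 4, where the median was -0.004. The 31 members between the limit of 10 and the olfactory receptor level shared the sign less. For CD103 with MDP 19 of them were below 0 (median -0.018), against 55.5% of all genes between these levels (median -0.019). For MDP in CD103 high cells 14 were (median 0.012), against 52.4% (median -0.009). For the difference of responses 21 were (median -0.028), against 55.0% (median -0.024).

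All members are read from the same arrays, so counts of members, here and above, are not counts of separate observations. Groups of arrays that did not overlap were counted as another reading of the same values. This was so in either direction for 7 of 69 members in CD103 high against low with PBS (8.53% of all genes), 18 with MDP (14.4%), 5 in MDP against PBS in CD103 low cells (5.5%) and 7 in CD103 high cells (19%). With MDP, the CD103 high arrays all lay below the CD103 low arrays for 15 of 69 members, where 7.93% of all genes did so, and above them for 3 (6.43% of all genes). Of the 15, 9 were bright: Rpl15, Rpl19, Rpl28, Rpl7a, Rps25, Rps3, Rps6, Rps9 and Rpsa, or 29.0% of the 31, against 11.8% of the 940 genes as bright. By limma, 1 of the 31 had an unadjusted p under 0.05 in that comparison, against 8.94% of the 940. With PBS the counts of groups that did not overlap were 4 lower (4.05% of all genes) and 3 higher (4.48%). For MDP against PBS they were 2 lower (2.52%) and 3 higher (2.98%) in CD103 low cells, and 5 lower (10%) and 2 higher (8.96%) in CD103 high cells. In the last of these, 9.68% of the bright members were lower, against 19.5% of the genes as bright. Without the 3 arrays numbered 4, the share of lower members with MDP was 26.1%, against 14.9% of all genes, and for bright members 32.3% against 22.2%. For MDP in CD103 high cells the lower members were then 19 of 69 (27.5%, against 23.7% of all genes), and 41.9% of the bright members were lower, against 33% of the genes as bright. For CD103 with PBS 9 members were then lower (13%, against 12% of all genes), and for MDP in CD103 low cells 3 (4.35%, against 4.79%).

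The level behind these signs can be read from the mean over the bright members in each array. The mean over the 31 bright members was 11.80 ± 0.046 (SD, n = 4) in PBS CD103 low, 11.80 ± 0.039 (n = 3) in PBS CD103 high, 11.81 ± 0.025 (n = 3) in MDP CD103 low and 11.74 ± 0.060 (n = 3) in MDP CD103 high. By array it was 11.81, 11.72 and 11.69 in MDP CD103 high replicates 2, 3 and 4, and 11.80, 11.84 and 11.80 in the MDP CD103 low arrays. Replicate 2 thus lay within the range of the MDP CD103 low group, and replicates 3 and 4 were the lowest arrays of the 13. Set beside the array of the same number and treatment, both MDP pairs were lower in CD103 high cells (11.81 against 11.84 for number 2, 11.72 against 11.80 for number 3). Both PBS pairs were higher in CD103 high cells (11.76 against 11.74 for number 4, 11.83 against 11.79 for number 6). The next lowest were PBS CD103 low replicate 4 (11.74) and PBS CD103 high replicate 4 (11.76). An array numbered 4 held the lowest value of the 13 for 24 of the 31 bright members.

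The 4 arrays with the lowest means of the bright members all belong to the 7 with high Xist. In a fit with the Xist kind added to the groups, 29 of 31 bright members were below 0 for Xist-high minus Xist-low arrays, with a median of -0.043 against 0.007 over the 940 genes as bright, and 0 of 69 members were called where 0.0676% of all genes were. Among the Xist-low arrays alone, 22 of 31 bright members were below 0 for CD103 with MDP (median -0.017) and 18 of 31 for MDP in CD103 high cells (median -0.016). Among the Xist-high arrays alone, both counts were 29 of 31 (medians -0.087 and -0.071). The Xist-low values rest on 1 MDP CD103 high array and the Xist-high values on 1 MDP CD103 low array; 1 PBS CD103 high array was Xist-low. With the Xist kind as a block the medians were -0.065 and -0.049.

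**Figure D4:**
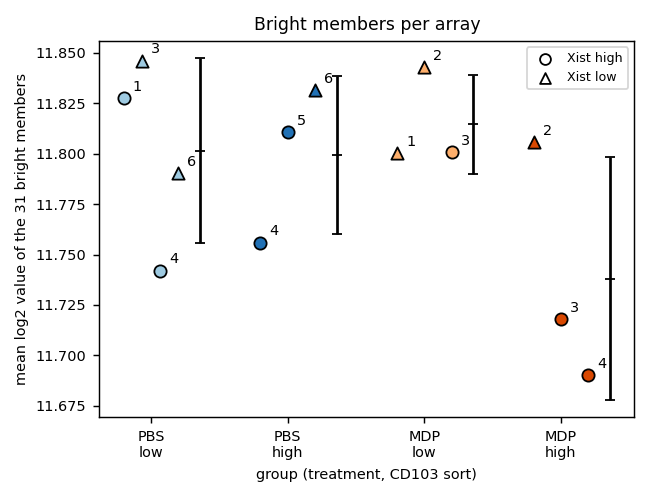
Mean log2 value of the 31 bright members in each array, by group, with replicate numbers beside the points and the group mean ± SD at the right; circles are arrays with high Xist and triangles arrays with low Xist. MDP CD103 high replicates 3 and 4 are lowest at 11.72 and 11.69, replicate 2 of that group reads 11.81, and the 3 arrays numbered 4 lie between 11.69 and 11.76.

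Members with a TOP start at the annotated base were set beside those without. The median log2 difference of the 11 and of the 43 was -0.019 and -0.018 for CD103 with PBS, -0.092 and -0.059 with MDP, 0.023 and 0.008 for MDP in CD103 low cells, and -0.032 and -0.027 in CD103 high cells. Both kinds were called in 0 cases in each of these. The kinds rest on the annotated base alone, so the 43 can hold genes whose mRNA does begin with the motif. These medians therefore do not separate mRNAs with the motif from mRNAs without it. The difference between both kinds was not tested.

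**Figure D5:**
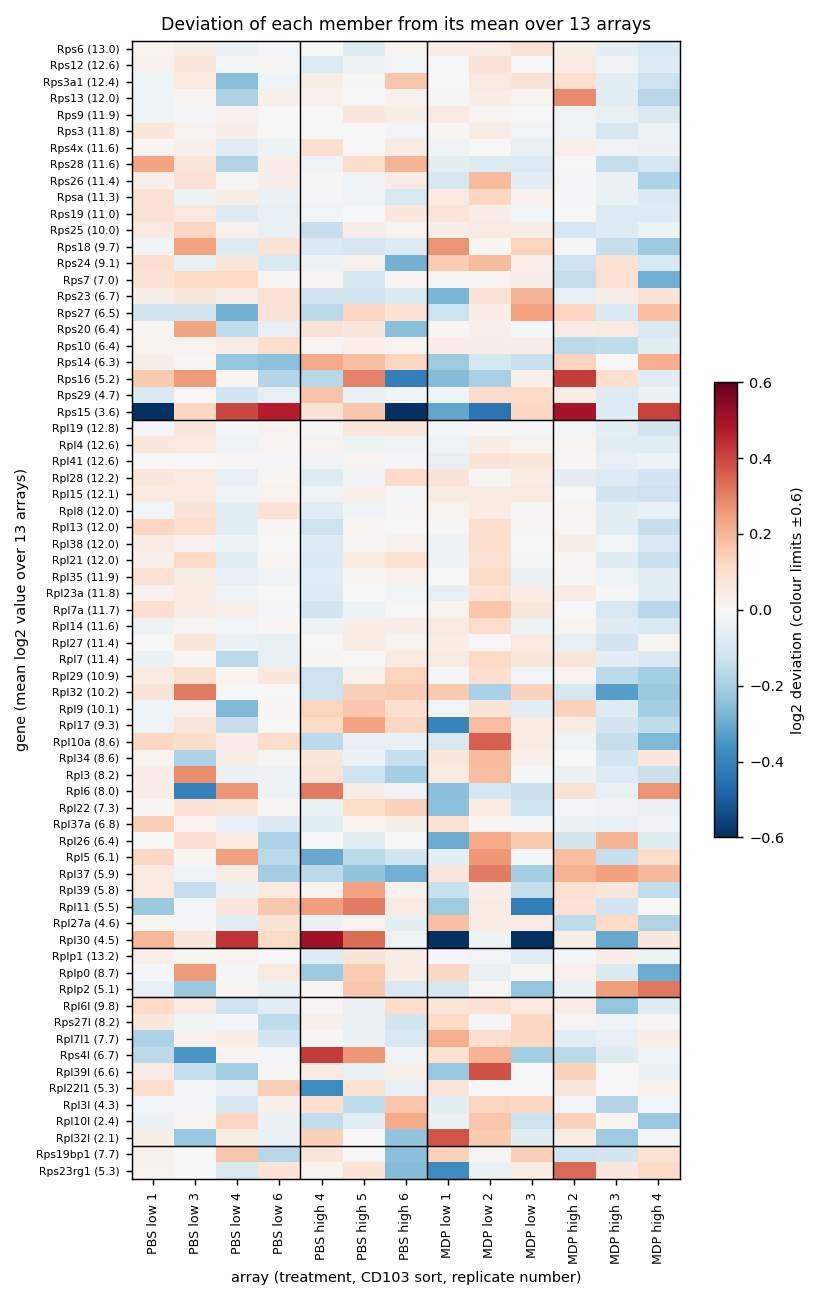
Deviation of each member's log2 value from its mean over 13 arrays (colour, limits ±0.6), with genes in rows by class (small subunit, large subunit, P stalk, paralogs, symbol only), mean log2 values in parentheses and arrays in columns by group. Bright members are pale throughout and mostly blue in MDP CD103 high replicates 3 and 4, and Rps15 and Rpl30 show the deepest colours.

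Genes that work with the ribosome were counted from lists chosen with earlier results of these data known. Of 17 measured translation factors and like genes with TOP mRNAs, 0 were called in each of the 7 contrasts. Their medians were -0.045 for CD103 with PBS, -0.101 with MDP, 0.040 for MDP in CD103 low cells and 0.008 in CD103 high cells. Of 4 symbols listed for ribosomal proteins under other names, an older one of Rack1 included, 1 was measured: Fau, the source of eS30, whose MDP difference in CD103 high cells was -0.12 ± 0.078 (limma, adjusted p = 0.586).

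Of 38 measured genes of ribosome assembly and RNA polymerase I, 1 was called, for MDP against PBS in CD103 high cells, where 1.82% of all genes were: Dkc1, the pseudouridine synthase of box H/ACA particles, was higher with MDP by 0.43 ± 0.094 (limma, adjusted p = 0.0386). It did not pass in 8 of 13 fits that left out an array, where its adjusted p ran from 0.0169 to 0.144. In that comparison 9 of the 38 were below 0 and the median was 0.077, against 53.7% and -0.013 over all genes. Of the members, 26 of the 32 of the large subunit and 16 of the 23 of the small subunit were below 0, with medians of -0.046 and -0.045. By array, the mean of the assembly genes was highest in MDP CD103 high replicate 4 and PBS CD103 low replicate 4 (8.84 and 8.83). The other arrays low in bright ribosomal proteins, MDP CD103 high replicate 3 and PBS CD103 high replicate 4, had 8.67 and 8.71, within the range of 8.58 to 8.77 of the remaining arrays. Of 71 mitochondrial ribosomal proteins, encoded by separate genes, 0 were called in each contrast, with a median of 0.061 for MDP in CD103 high cells. For Xist-high minus Xist-low arrays, 8 of the 71 and 4 of the 38 assembly genes were below 0, with medians of 0.074 and 0.062. Over all genes 46.3% were, with a median of 0.008. Of 16 genes of mTORC1 and the S6 kinases 0 were called, and Myc, a driver of ribosome production, was higher with MDP in CD103 high cells by 0.49 ± 0.17 (limma, adjusted p = 0.22), short of the threshold. Myc was also higher with MDP in CD103 low cells, by 0.34 ± 0.16 (limma, adjusted p = 0.814), and on average over the sorts, by 0.41 ± 0.12 (adjusted p = 0.182).

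The same arrays did show calls in other lists, which were also chosen with earlier results of these data known. Of 23 measured cell cycle genes, 17 rose with MDP in CD103 high cells, where 1.82% of all genes were called, and 6 were higher in CD103 high than low cells with MDP, where 0.523% were (limma, adjusted p under 0.05). These counts fell to 1 without PBS CD103 high replicate 6 and to 0 without MDP CD103 high replicate 2. Of 18 genes of mature dendritic cells, 5 fell with MDP in CD103 high cells and 3 were lower in CD103 high than low cells with MDP, beside the same shares of all genes. Both counts were 0 without MDP CD103 high replicate 2, and the first was 12 without MDP CD103 low replicate 1. The ribosomal protein genes had 0 calls in both of these comparisons, with and without those arrays. Because the lists were picked with earlier results known, their calls do not set the ribosomal protein genes apart.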

How the data were processed

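Expression was measured on 13 Mouse Gene 2.0 ST arrays from 400 ng of pre-amplified RNA each, per the labels. The deposited log2 values were made by RMA in Affymetrix Expression Console, per the submitters' processing notes (versions and genome build: not given in the sources used here). This method subtracts background, gives all arrays the same distribution and combines the probes of a set. Of 41345 probe sets, 23521 had 1 gene symbol, and the brightest per gene gave 22180 genes. With limma 3.58.1 under R 4.3.3, a model with 1 mean per group was fitted to all 13 arrays, followed by eBayes (9 residual and 3.86 prior degrees of freedom), two-sided, with Benjamini-Hochberg adjustment over all genes of a contrast and a threshold of 0.05; the fit was tested on simulated data. Differences are given ± SE. Intervals are 95% intervals. Tables were made with Python 3.11.15, pandas 2.3.3, numpy 2.4.6 and matplotlib 3.10.9. The number of arrays limits the precision.

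The members and the gene lists were chosen with earlier results of these data known. Members were named by rule: the 3 largest rises and falls per contrast, the 5 with the largest SD within groups, and set paralog pairs, stalk proteins and proteins with special roles; other names were chosen after their values were seen. No protein sequences were used. The labels do not say what a replicate number stands for. Arrays of the same number and treatment were taken as pairs, which is an assumption. The deviations of these 4 pairs from their group means correlated at 0.115 to 0.289, and each pair shared its Xist kind. The 17 pairs of other numbers within a treatment had -0.253 to 0.180, 1 of them over 0.1. The fit behind the p-values and intervals did not use the pairs. Pairs with the same number in different treatments had -0.130 to 0.403 and were not treated as pairs. Alternatives were each array left out, the replicate number as a block, mean probe sets, the compared groups alone, trend and robust variance, dim genes left out, array medians subtracted and the Xist kind as a block. Random blocks, fits without the arrays numbered 4 and fits within an Xist kind were chosen after seeing the data.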

Additional observations from a re-analysis of the deposited data

How the results depend on the processing

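The count of called members stayed at 0 in each of the 7 contrasts under the 25 alternatives, wherever a contrast could be fitted, except for MDP against PBS in CD103 high cells. There it was 1, Rpl37, with the compared groups alone (adjusted p = 0.0485 from limma), with dim genes left out (adjusted p = 0.0324), and without MDP CD103 low replicate 2 or 3, so that leaving out an array gave 0 to 1. Fewer arrays or genes enter these fits. With the replicate number as a fixed block the count was 0 throughout, also among all genes, and the medians over the 69 members were -0.088 for MDP in CD103 high cells, -0.031 in CD103 low cells and -0.043 on average, and over the 31 bright members -0.094 and -0.033; the cause was not tested. With the number as a random block within treatment, 0 members were called, and the calls among all genes were 190 for CD103 with MDP, 41 for the difference of responses, 64 for CD103 on average and 13 for MDP on average. Among Xist-low arrays alone the median of the members was -0.016 for CD103 with MDP and 0.012 for MDP in CD103 high cells, and that of bright members -0.017 for CD103 with MDP. The CD103 difference of Rps15 with PBS was -0.23 and turned to 0.048 without PBS CD103 high replicate 6, in a range of -0.495 to 0.048 over the arrays left out; the cause was not tested. The other 931 values of named members apart from those of Rpl37 above kept direction and side of the threshold. These values repeat the same members over alternatives that share most arrays, and the members were named for large differences in these data. They are therefore not 931 separate tests.

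Calls among all genes moved more. Over the alternatives they ran from 0 to 25 (17 in the fit described) for CD103 with PBS, 0 to 228 (116) with MDP, 0 to 2 (1) for MDP in CD103 low cells, 0 to 699 (403) in CD103 high cells, 0 to 134 (16) for the difference of responses, 0 to 87 (28) for CD103 on average and 0 to 212 (41) for MDP on average. Without MDP CD103 high replicate 2 the count for CD103 with MDP was 0, and without PBS CD103 high replicate 6 that for MDP in CD103 high cells was 82. Members below the olfactory receptor level have little signal over background, which limits what can be said of Rps15 and Rpl30.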
